A study of Mus musculus with 3 samples.

Results

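Accessible chromatin was described around 9 genes for receptors that steer neutrophils and their precursors: Cxcr2, Cxcr1, Cxcr4, Ccr1, Ccr2, Cx3cr1, C5ar1, Ltb4r1 and Ptafr. They are 9 of 21887 protein-coding genes in the annotation, and were chosen by name. For each gene, every open-chromatin region in the gene span plus 50 kb on each side (build mm10) was taken from the 3 deposited lists, and each region was counted once. These windows held 286 of 182233 regions at 0 h, 287 of 178055 at 6 h and 285 of 145044 at 72 h. The windows of Cxcr1 and Cxcr2 overlap, and a region in both was given to the nearer gene.

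The study used ATAC-seq, where a transposase inserts sequencing adapters into accessible DNA, in ECOMG cells, a mouse myeloid progenitor line. All cells had the genotype FKBP12F36V_NIPBL, in which NIPBL, the loader of the cohesin ring, carries a degron, and all were grown with GM-CSF and estradiol. There was 1 library taken at 0 h with no dTAG, 1 taken at 6 h with dTAG and 1 taken at 72 h with dTAG, each from 50000 cells. The compound dTAG brings the tagged protein to the cell's degradation machinery. With 1 library per time there is no replicate check and no test between times, and time in culture and dTAG cannot be told apart. Whether the tagged line is 1 clone is not given in the sources used here.

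Receptors of this group are G protein-coupled and respond to chemokines, to a complement fragment or to lipid mediators. In the bone marrow, signalling through Cxcr4 by its ligand Cxcl12 holds neutrophils in place, and signalling through Cxcr2 favours their release into blood. During maturation in mice, Cxcr4 on the cell surface goes down and Cxcr2 goes up.

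The stretch of 250 bases before the start of 3 of the genes is shown because, of the receptor starts listed at every time, theirs differed most in rank between 72 h and 0 h. The sequences are from RefSeq for GRCm38.p6, the assembly of mm10, 5′ to 3′ on the gene's own strand. Capitals mark bases inside a region listed at 72 h. Cxcr2 lies on the plus strand (chr1:74153744-74153993), Cxcr4 on the minus strand (chr1:128592300-128592549) and C5ar1 on the minus strand (chr7:16259339-16259588).
Cxcr2: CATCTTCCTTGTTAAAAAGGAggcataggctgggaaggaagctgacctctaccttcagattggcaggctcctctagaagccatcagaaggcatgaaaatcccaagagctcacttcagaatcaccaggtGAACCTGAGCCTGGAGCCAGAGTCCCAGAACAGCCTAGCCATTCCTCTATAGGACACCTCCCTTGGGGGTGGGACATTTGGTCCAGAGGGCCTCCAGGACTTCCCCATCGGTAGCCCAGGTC
Cxcr4: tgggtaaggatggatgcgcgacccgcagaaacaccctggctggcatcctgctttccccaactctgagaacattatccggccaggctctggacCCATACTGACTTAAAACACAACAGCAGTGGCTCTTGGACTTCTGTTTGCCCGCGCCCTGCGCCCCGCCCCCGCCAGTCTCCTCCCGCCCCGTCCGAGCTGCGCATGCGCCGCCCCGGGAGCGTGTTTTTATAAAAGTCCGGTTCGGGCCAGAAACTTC
C5ar1: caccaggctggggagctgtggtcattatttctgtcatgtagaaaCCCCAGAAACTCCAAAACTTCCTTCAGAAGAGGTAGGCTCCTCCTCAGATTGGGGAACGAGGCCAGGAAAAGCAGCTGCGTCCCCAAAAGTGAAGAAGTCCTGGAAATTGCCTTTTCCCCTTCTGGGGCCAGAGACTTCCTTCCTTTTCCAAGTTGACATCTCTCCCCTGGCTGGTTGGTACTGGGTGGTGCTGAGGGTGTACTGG

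In the Cxcr2 stretch, 143 of the 250 bases were covered at 72 h, against 91 at 0 h. In the C5ar1 stretch, 206 bases were covered at 72 h and 33 at 0 h, and most of this stretch lies inside the annotated gene span, which reaches 16259540. In the Cxcr4 stretch the count was 158 at 72 h and 250 at 0 h, and the bases that were no longer covered lay farthest from the start. They were a gap between regions, as another 72 h region (128592553 to 128592722, fold 35.1) lay just beyond the stretch. So the covered part of these 250 bases was longer at Cxcr2 and C5ar1 and shorter at Cxcr4.

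At the start of Cxcr2 the 72 h library had a higher region than the 0 h library, and at the start of Cxcr4 it had a lower one. Overlapping regions of the 3 lists were joined into sites, and the start-site region is the site nearest the RefSeq start, within 1 kb. Its height at a time is the fold of its highest listed region, where the fold is the authors' ratio of summit signal over background as their peak caller gave it. At the Cxcr2 start (chromosome 1, 74153872 to 74154091) the fold was 12.9 at 0 h, 18.1 at 6 h and 46.1 after 72 h. The 72 h value was the highest of the 3, and the 6 h value lay nearer to that of 0 h. Taking the fold to be (fragments + 1)/(background + 1), as its even spacing allows, the summit held 58 fragments at 72 h (95% counting interval 44 to 75), against 16 at 0 h (9.15 to 26). These intervals do not overlap; they cover counting error only, and library totals were not used.

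At the Cxcr4 start (chromosome 1, 128590753 to 128592758) the fold was 69.5 at 0 h, 70.8 at 6 h and 35.1 after 72 h. Here the 0 h and 6 h libraries were alike and the 72 h library was the low one. The summit held 44 fragments at 72 h (32 to 59.1) and 91 at 0 h (73.3 to 112), again without overlap of the intervals. The highest Cxcr4 summit at 72 h was not in the region over the start but in a separate one upstream. The region over the start itself had a fold of 16.4 at 72 h, with 20 summit fragments (12.2 to 30.9). At 0 h the Cxcr4 interval lay above that of Cxcr2. At 72 h the interval of the upstream Cxcr4 region overlapped that of Cxcr2, and the interval of the region over the Cxcr4 start lay below it. In bulk cells a change in height can come from more or fewer cells with open DNA or from a change in each cell, and these cannot be told apart.

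Because the lists differ in background and length, each region was also ranked by its fold among the same 98083 sites listed at all 3 times, where 100 is the highest rank. The Cxcr2 start had a rank of 47.2 at 0 h, 57.8 at 6 h and 80.5 after 72 h. The Cxcr4 start had a rank of 91.9 at 0 h, 90.3 at 6 h and 74.8 after 72 h, or 53.7 at 72 h by the region over the start alone. The 2 start sites therefore changed places in rank order between 0 h and 72 h, with differences, 72 h minus 0 h, of 33.3 points for Cxcr2 and -17.1 points for Cxcr4. Their summit intervals at 72 h overlapped by these site values, so their order at 72 h is not shown beyond counting error. For Cxcr4 the difference was -38.3 points by the region over the start. Of 9338 start sites of all genes listed at all 3 times, the gene itself included, 1.03% had a difference at least as high as that of Cxcr2, and 7.1% had one at least as low as that of Cxcr4. Sites that start high have little room above them, so the shares were also taken among start sites within 10 rank points of the gene at 0 h. They were then 3.24% of 524 for Cxcr2 and 2.31% of 7002 for Cxcr4.

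**Figure D1:**
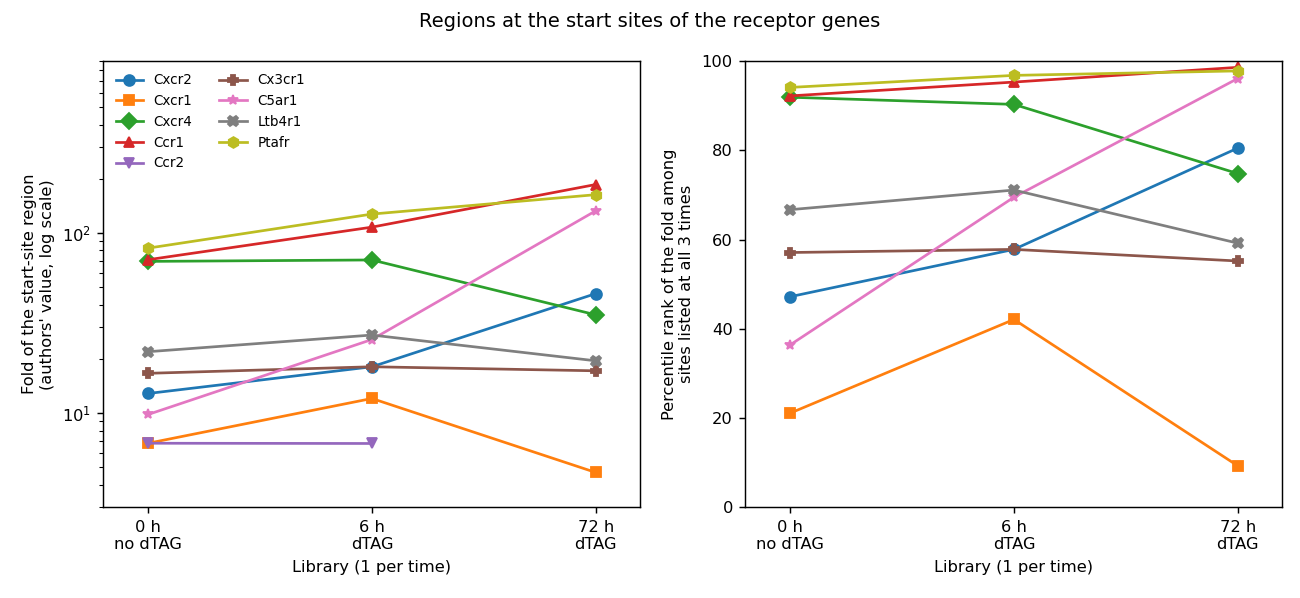
Fold of the start-site region (left, log scale) and its percentile rank among sites listed at all 3 times (right) for the 9 receptor genes in the 0 h, 6 h and 72 h libraries, 1 point per library. C5ar1 and Cxcr2 stand at ranks of 96.1 and 80.5 at 72 h, against 36.4 and 47.2 at 0 h, Cxcr4 stands at 74.8 at 72 h, against 91.9 at 0 h, and Ccr2 has no point at 72 h because the site listed at 0 h and 6 h was not listed then.

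The Cxcr4 start region also differed in shape. It was 1 region of 1996 bp at 0 h, 2 regions covering 1933 bp at 6 h and 4 regions covering 1162 bp at 72 h. The highest summit lay 79 bp downstream of the start at 0 h and 6 h. At 72 h the highest lay upstream, at -335 bp relative to the start, in a region at 128592553 to 128592722, and the region over the start itself lay at 128592089 to 128592457. Splitting was common among broad start sites: of 1241 listed as 1 region of 1 kb or more at 0 h, 69.1% were in pieces at 72 h. A split into 4 or more pieces was found in 7.49% of them, and a rank difference as low as that of Cxcr4 in 1.29%. A second region upstream of the Cxcr4 start (128593008 to 128593504) had a fold of 15.1 at 0 h, 14.3 at 6 h and 4.68 after 72 h, the lowest rank difference in the Cxcr4 window at -44.2 points.

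Next to the Cxcr2 start, a further region (74153576 to 74153764), with its 72 h summit 356 bp upstream of the start, was not listed at 0 h, had a fold of 5.27 at 6 h and 10.9 at 72 h. Within the Cxcr2 gene the highest region (74159700 to 74160107) had a fold of 22.7 at 0 h, 21.1 at 6 h and 52.3 at 72 h. A region 1.34 kb inside the gene had 11.3, 12.8 and 23.4. Another, 13.1 kb downstream of the start (74167120 to 74167456), had 15.9 at 0 h, 15.1 at 6 h and 36.7 at 72 h. In these sites the 72 h library was the high one. Other sites nearby were not higher at 72 h. A region inside the gene (74156471 to 74156661) had 7.56 at 0 h, 6.03 at 6 h and 6.25 at 72 h, and a region 2.57 kb upstream (74151239 to 74151426) had 15.1, 8.29 and 7.81. Upstream, inside the neighbouring gene Rufy4, the regions were mixed. A region at 74130992 to 74131141 had a fold of 11.3 at 0 h, 18.1 at 6 h and 21.9 after 72 h. By contrast a region at 74134016 to 74134188 had a fold of 11.3 at 0 h, 10.5 at 6 h and 3.90 at 72 h, and a region at 74132119 to 74132228 had 15.1 at 0 h, 17.3 at 6 h and was not listed at 72 h.

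The Cxcr4 window was not lower throughout. Its highest region at 72 h lay 21.7 kb downstream of the start (128569918 to 128570624), with folds of 52.9 at 0 h, 54.3 at 6 h and 76.5 at 72 h. A group of 4 regions 42.4 to 43.8 kb downstream had folds of 5.29 to 9.07 at 0 h, of 4.52 to 17.3 at 6 h and 14.1 to 21.1 after 72 h. Upstream, a broad site 22.0 kb from the start (128614323 to 128615715) had 40.1 at 0 h, 42.2 at 6 h and 16.4 at 72 h. Near it, a region at 128613868 to 128614031 had 4.54 at 0 h, 8.29 at 6 h and 12.5 at 72 h. Downstream, a region at 128540304 to 128540459 had 9.07, 3.77 and 3.12. Both flanks of Cxcr4 thus held sites that were higher and sites that were lower at 72 h.

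**Figure D2:**
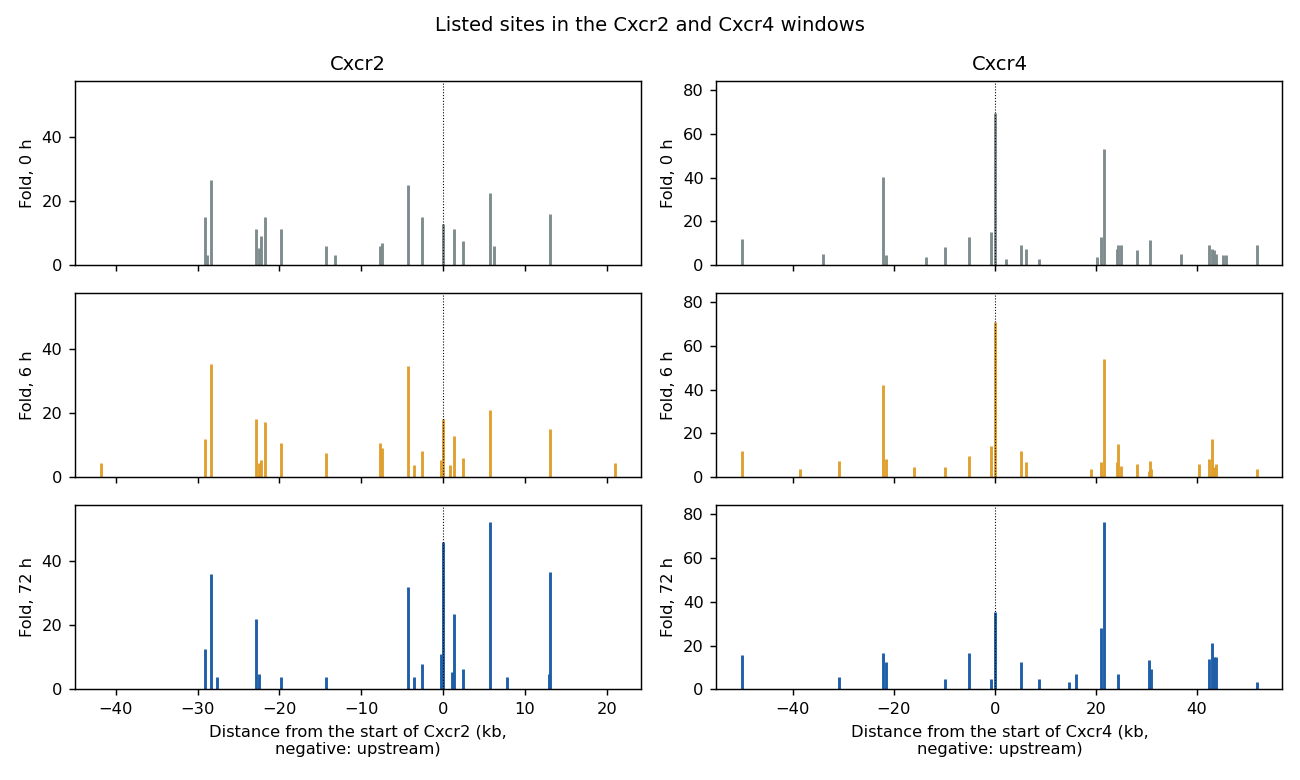
Fold of each listed site (vertical axis, linear) by distance from the RefSeq start in kb (horizontal axis, negative values upstream) in the Cxcr2 and Cxcr4 windows, with the 0 h, 6 h and 72 h libraries from top to bottom. At Cxcr2 the start reaches a fold of 46.1 at 72 h, while at Cxcr4 the highest region of the start site reaches 35.1 at 72 h and the site 21.7 kb downstream reaches 76.5.

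Beside Cxcr2, Cxcr1 encodes a related receptor that is best known from human neutrophils. Its start-site region (74194680 to 74194801) had a fold of 6.80 at 0 h, 12.1 at 6 h and 4.68 after 72 h. The 6 h library was the high one, with a rank of 42.1 against 21.1 at 0 h. The summit counts were 8 at 0 h (3.45 to 15.8), 15 at 6 h (8.4 to 24.7) and 5 at 72 h (1.62 to 11.7), and all of these intervals overlap, so no order of the 3 times is shown beyond counting error. Farther upstream of Cxcr1 a region at 74201100 to 74201328 had 5.29 at 0 h, 5.27 at 6 h and 16.4 after 72 h. The Cxcr1 window also held 2 of the higher regions of the group, 1 at an end of Arpc2 (74236307 to 74237260) with 80.9, 98.7 and 87.4, and 1 between genes (74227312 to 74227616) with 75.6, 77.6 and 96.8 at 0 h, 6 h and 72 h. Cxcr1 with Cxcr2 and Ccr1 with Ccr1l1 are related by sequence, and how reads that fit several places were treated is not given in the sources used here.

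C5ar1, the receptor for the complement fragment C5a, had the highest rank difference of the 8 starts listed at all 3 times. Its start-site region (chromosome 7, 16258767 to 16259544) had a fold of 9.83 at 0 h, 25.6 at 6 h and 133 after 72 h. The libraries followed the order of time without overlap between 0 h and 72 h: the summit held 169 fragments at 72 h (144 to 196) and 12 at 0 h (6.2 to 21). The rank was 36.4 at 0 h, 69.5 at 6 h and 96.1 after 72 h. A difference as high as its 59.7 points was found at 0.161% of the 9338 start sites, and of the 360 that lay within 10 points of it at 0 h, C5ar1 itself was the only 1. A second region just inside the gene (16257828 to 16258424) had 78.6 at 0 h, 88.9 at 6 h and 140 after 72 h. At the far end of the gene (16245920 to 16246318) the fold was 92.2 at 0 h, 94.2 at 6 h and 50.7 after 72 h, so the ends of this gene differed in opposite directions.

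Ltb4r1, the receptor for the lipid leukotriene B4, had a start-site region (chromosome 14, 55765681 to 55766037) with folds of 21.9 at 0 h, 27.1 at 6 h and 19.5 after 72 h. The 3 libraries lay close together, and the intervals of the summit counts overlapped (15.4 to 35.7 fragments at 72 h and 18.6 to 40.5 at 0 h). Ptafr, the receptor for platelet-activating factor, had a broad high start region (chromosome 4, 132563680 to 132564596) with 82.4 at 0 h, 127 at 6 h and 163 after 72 h. Its values followed the order of time, with 208 summit fragments at 72 h (181 to 238) and 108 at 0 h (88.6 to 130). Its rank was already 94.1 at 0 h and was 97.8 at 72 h. A region 3.27 kb inside Ptafr (132567334 to 132567868) had 31.0 at 0 h, 39.2 at 6 h and 85.1 at 72 h. Ltb4r1 and Ptafr thus differed in height and in course.

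Among the CC and CX3C chemokine receptors, Ccr1, which binds Ccl3 and Ccl5 and is found on neutrophils and monocytes, had the highest start region of the 9 at 72 h. That region (chromosome 9, 123968186 to 123968875) had a fold of 71.1 at 0 h, 108 at 6 h and 186 at 72 h. Each later library was above the one before it. The summit held 237 fragments at 72 h (208 to 269), 142 at 6 h (120 to 167) and 93 at 0 h (75.1 to 114). Ccr2, which brings monocytes out of the marrow in answer to Ccl2, had low regions at its start. A region 211 bp upstream (124101880 to 124101972) had 6.80 at 0 h and 6.78 at 6 h and was not listed at 72 h, and a region 567 bp downstream (124102750 to 124102912) was listed only at 72 h, with 8.59 and 10 summit fragments (4.8 to 18.4). The lowest summit that any of the lists held was 3 fragments, so a region that is not listed may hold signal below that. Cx3cr1, the receptor for fractalkine and a mark of patrolling monocytes, had a start-site region (120068169 to 120068478) with 16.6 at 0 h, 18.1 at 6 h and 17.2 after 72 h. The folds at its start were thus close, while its far end (120049481 to 120049714) had 6.05, 9.04 and 28.1, and a region inside the gene (120054574 to 120055540) had 10.6, 13.6 and 50.7 at the same times.

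In order of start-site fold at 72 h the genes were Ccr1, Ptafr, C5ar1, Cxcr2, Cxcr4, Ltb4r1, Cx3cr1 and Cxcr1. By the region over its start alone Cxcr4 would stand between Cx3cr1 and Cxcr1, and the other Ccr2 region, 567 bp from the start, would stand above Cxcr1. Among the 8 genes, counting intervals overlapped between all neighbours in this order but 2 pairs, C5ar1 with Cxcr2 and Cx3cr1 with Cxcr1. At 0 h the order was Ptafr, Ccr1, Cxcr4, Ltb4r1, Cx3cr1, Cxcr2 and C5ar1, with Cxcr1 and Ccr2 last and equal. There the gap without overlap lay between Cxcr4 (73.3 to 112 fragments) and Ltb4r1 (18.6 to 40.5).

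Of the 8 receptor starts listed at all 3 times, 2 (Cxcr2 and C5ar1) ranked at least 20 points higher at 72 h than at 0 h, and 0 ranked at least 20 points lower. Over all 9338 start sites the shares were 2.44% higher and 5.93% lower by that size. The median start site already ranked 92.1 at 0 h, so most had no room to rank 20 points higher at either later time. Cxcr2 and C5ar1 had that room, with ranks of 47.2 and 36.4 at 0 h. The shares over all start sites are therefore not matched for height, and no matched share at 20 points is given here. The counts of receptor starts also depend on how the start is ranked. Ranked among start sites only, 4 of the 8 were at least 20 points higher (C5ar1 by 68.3, Ccr1 by 39.6, Ptafr by 23.8 and Cxcr2 by 21.0) and 1 was lower (Cxcr4, -26.5), beside 2.67% and 4.32% of start sites. By the single listed region nearest the start, 2 of 9 were higher (Cxcr2 and C5ar1) and 1 lower (Cxcr4), beside 4.14% and 7.88% of 9675 starts. At 6 h, Cxcr1 and C5ar1 were higher than at 0 h by 21.0 and 33.1 points and 0 were lower by 20, beside 0.739% and 0.771% of all start sites. For Cxcr1 the summit intervals at 0 h (3.45 to 15.8) and 6 h (8.4 to 24.7) overlapped, so its difference is not shown beyond counting error. Those of C5ar1 (6.2 to 21 and 22.7 to 46.3) did not overlap. The size of 20 points and these ways of ranking were chosen after the values were seen. All 9 genes had a region within 1 kb of an end of the gene at every time, so 0 of 9 lost and 0 could gain one. Among all coding genes with an end region at 0 h, 9.67% had lost it at 72 h and 4% at 6 h, and among those without one, 3.3% had gained it at 72 h and 6.05% at 6 h.

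Around the starts, the number of regions in the windows hardly differed between times, although the whole list at 72 h was shorter. The ratio of counts to 0 h was 0.997 at 72 h (95% counting interval 0.843 to 1.18) and 1.003 at 6 h (0.849 to 1.19). Over all coding loci, where a region counts for every window it lies in, the ratio of sums was 0.847 at 72 h and 0.977 at 6 h. Counted for each gene in that way, the 9 windows had a ratio of 1.003 at 72 h and at 6 h. The median coding locus had 0.839 times its 0 h regions at 72 h. The same region often stands in both lists, so these intervals do not describe a paired change.

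The Cxcr2 window contained 21 regions at 0 h, 24 at 6 h and 19 after 72 h, and Cxcr4 held 29, 31 and 25. In both genes' windows the 6 h count was the highest and the 72 h count the lowest. The ratio of 72 h to 0 h was 0.905 at Cxcr2 (0.460 to 1.77) and 0.862 at Cxcr4 (0.484 to 1.52), so the 2 genes could not be told apart by their number of regions. Nor was either direction stable: with a 10 kb flank the counts were 12 at 72 h and 10 at 0 h for Cxcr2, and 9 at 72 h and 8 at 0 h for Cxcr4. Among regions with a fold of at least 10 they parted, with 9 at 72 h and 12 at 0 h for Cxcr2, against 14 at 72 h and 8 at 0 h for Cxcr4.

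The lipid and complement receptors held the most regions: C5ar1 had 48, 48 and 53, Ltb4r1 had 48, 46 and 49, and Ptafr had 42, 36 and 41 at 0 h, 6 h and 72 h. Ccr1 had 26, 30 and 33, Ccr2 had 19, 21 and 18, Cx3cr1 had 33, 36 and 26, and Cxcr1 had 20, 15 and 21. No window reached 1.5 times as many regions, or 1/1.5 times as many, as at 0 h at either later time. Among coding loci with at least 5 regions, 1.67% had at least 1.5 times as many at 72 h and 24.5% at most 1/1.5 times as many, and at 6 h the shares were 2.06% and 3.45%. At 72 h, 4 of the 9 windows had more regions than at 0 h (Cxcr1, Ccr1, C5ar1 and Ltb4r1) and 5 had fewer, beside 17.7% and 68.1% of all coding loci. At 6 h, 5 had more, 3 had fewer and C5ar1 had as many, beside 34.6% and 44.1% of coding loci. Under all 7 other ways of counting that were tried, Cxcr1, Ccr1 and C5ar1 had more regions at 72 h than at 0 h, and each of the other windows turned or tied under at least 1.

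In the 9 windows, high regions were more frequent at 72 h. Regions with a fold of at least 10 numbered 125 at 0 h, 136 at 6 h and 168 at 72 h over the 9 windows, and the median fold was 9.07, 9.04 and 14.1. Ptafr had 19, 22 and 29 such regions and Ltb4r1 20, 22 and 29. At 72 h, 8 of the 9 windows had more of them than at 0 h and 1, that of Cxcr2, had fewer, beside 44.2% and 28% of all coding loci. The number of such regions and the median fold in the whole list are not given here. The whole list was also higher by its median −log10 q (the caller's adjusted p-value), 13.0 at 72 h against 7.82 at 0 h. The background under the summit by the fold grid was 0.281 fragments at 72 h and 0.323 at 0 h, and its part in these counts was not tested.

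**Figure D3:**
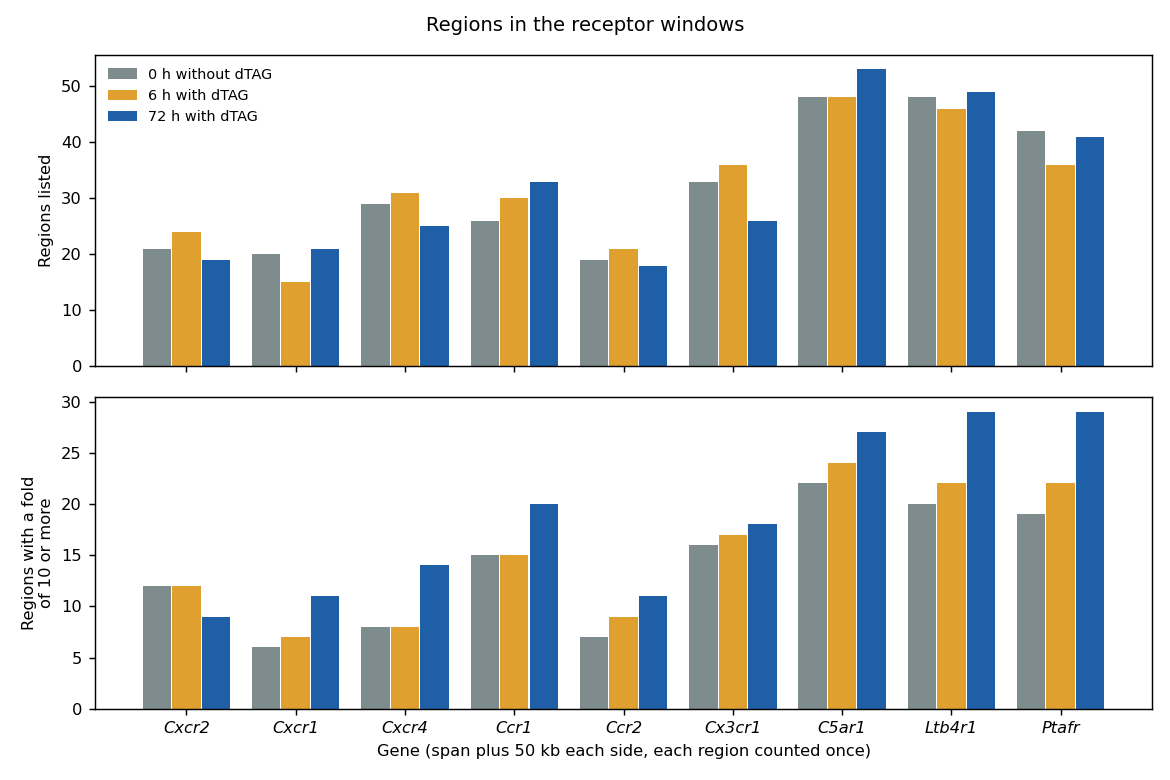
Number of regions listed in each receptor window (top) and number with a fold of at least 10 (bottom) in the 0 h, 6 h and 72 h libraries, as bars from 0. The top bars stay within 1.5 times the 0 h bar in every window, and the bottom bars are higher at 72 h than at 0 h in every window but that of Cxcr2, where they are 9 at 72 h and 12 at 0 h.

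Losses and gains of strong regions were counted next, where a region is strong if its −log10 q (the caller's adjusted p-value) is in the top 50% of its library. At 72 h, 20 of the 180 strong 0 h regions had no overlapping region (11.1%, exact interval 6.92 to 16.6), beside 15.7% of all strong 0 h regions. Of 174 strong 72 h regions, 15 had no overlap at 0 h (8.62%, 4.91 to 13.8), beside 7.21% of all. At 6 h, 3 of 180 were lost and 1 of 169 gained, beside 2.48% and 1.71%. At 72 h both shares of all regions lay inside the counting intervals of the 9 windows. Which was more frequent depends on the threshold: with strong as a −log10 q of at least 10 there were 13 losses and 20 gains, and with a fold of at least 10 there were 5 and 13. The shares over all regions at these fixed thresholds are not given here. The median −log10 q of the whole list was 13.0 at 72 h, against 7.82 at 0 h, so these counts are not read as particular to the 9 windows.

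Cxcr2 lost 3 strong regions at 72 h and gained 1. The losses, with 0 h folds of 6.80, 9.07 and 15.1, all lay inside Rufy4, 7.56 to 22.3 kb upstream, and the gain is the region 356 bp upstream of the start described above. Cxcr4 lost 5 and gained 2. Its losses had 0 h folds of 6.80 to 11.3 and lay between genes 6.26 to 30.9 kb downstream, and its gains (128561113 to 128561287 and 128561608 to 128561748, folds of 9.37 and 13.3) flanked 1 of the losses, at 128561353 to 128561482. The lists thus show gains near the start of Cxcr2 and downstream of Cxcr4, with losses in the flanks of both.

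Ccr1 lost 1 and gained 6, the most gains in the group. Of these 6, 4 lay 22.6 to 37.8 kb downstream (folds of 10.1 to 14.8), 1 lay inside the gene (12.5) and 1 lay 31.2 kb upstream (9.37). C5ar1 lost 5, the highest in the gene Dhx34 (16210924 to 16211202, fold 18.9 at 0 h), and gained 0. Ccr2 gained a region 44.3 kb downstream (124146404 to 124146598) with a fold of 30.4 at 72 h, the highest gain among the 9 windows, and another with 12.5, and lost 2, of which 1 is its start region. Cx3cr1 lost 2 and gained 0, Ltb4r1 lost 0 and gained 2, Ptafr lost 1 and gained 0, and Cxcr1 lost 1 and gained 2. The Cx3cr1 losses had 0 h folds of 8.32 and 13.6, the higher at an end of Xirp1. The Ltb4r1 gains both had a fold of 10.9, and 1 of them lay beyond the far end of the gene (55769141 to 55769243). The Ptafr loss had a 0 h fold of 6.80, the Cxcr1 loss one of 8.32, and the Cxcr1 gains had 72 h folds of 10.1 and 14.8.

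Sites listed at all 3 times, 179 in the 9 windows, tended to rank higher at 72 h. Of these, 112 were higher and 67 lower than at 0 h (62.6% higher, beside 47.2% of all 98083 sites), and the median difference was 4.42 points against -0.917 over all. At least 20 points higher were 49 (27.4%, beside 16.3%), and at least 20 lower were 14 (7.82%, beside 16.1%). At 6 h, 99 were higher and 80 lower (55.3% higher, beside 50%), 8 by at least 20 points up (beside 4.21%) and 4 by at least 20 down (beside 4.45%). Neighbouring sites share a locus, so the 179 are not separate observations.

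The windows differed among themselves. At Ccr1, 16 of 17 sites ranked higher at 72 h, with a median difference of 17.5 points and 0 sites lower by 20 or more. At Ptafr it was 22 of 28 with a median of 9.94 points. Cxcr4 was the most mixed, with 5 of 16 sites at least 20 points higher and 4 at least 20 lower, and Cxcr2 had 4 and 2 of 13. Ltb4r1 (13 of 33 higher) and Cxcr1 (5 of 12) had medians of -1.40 and -1.09 points, near that of all sites, with 7 sites at least 20 points higher and 4 lower at Ltb4r1 and 3 higher and 1 lower at Cxcr1.

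**Figure D4:**
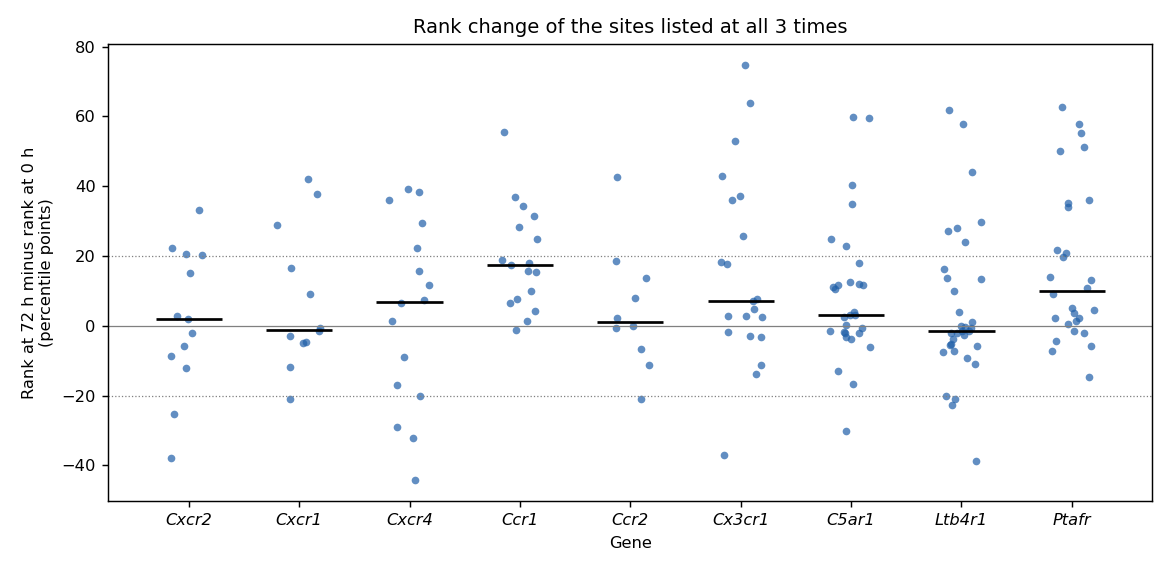
Difference in rank, 72 h minus 0 h in percentile points, of each site listed at all 3 times in each receptor window, with 1 dot per site, black bars for the medians and dotted lines at 20 points up and down. All dots of Ccr1 but 1 lie above 0 with a median of 17.5, and the dots of Cxcr4 spread from -44.2 to 39.1.

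The Ccr1 sites that ranked higher formed a stretch downstream of the gene. At 26.4 kb (123942075 to 123942322) the fold was 8.32 at 0 h, 12.8 at 6 h and 58.5 after 72 h. Beside it, at 123941277 to 123941839, it was 19.7, 27.1 and 88.2, and at 123927301 to 123927676 it was 16.6, 23.4 and 72.6. In each of these the 72 h library was the high one, by more than the 6 h library was above 0 h. Of the 42 sites in the Ccr1 window, 11 were listed at 72 h only.

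At Ptafr, Ltb4r1 and Cx3cr1 the highest rank differences also lay away from the starts. At Ptafr, a site 46.9 kb downstream (132610976 to 132611272) had 3.78 at 0 h, 4.52 at 6 h and 24.2 after 72 h. At Ltb4r1, a site 49.4 kb downstream (55815333 to 55815646) had 6.80, 9.04 and 52.3. At Ccr2, a site 41.5 kb downstream (124143707 to 124143951) had 25.7, 32.4 and 82.7. At Cx3cr1, the site with the highest difference of all 179 lay at an end of Xirp1 (120012756 to 120013153), with 5.29 at 0 h, 12.1 at 6 h and 63.2 at 72 h and a rank difference of 74.8 points. A site upstream of Cx3cr1 (120081368 to 120081525) was lower instead, with 25.7, 28.6 and 9.37. For Ltb4r1 the lowest difference lay inside Dhrs1 (55741856 to 55742056), with 15.1, 15.8 and 5.46. Naming these sites was chosen after the values were seen, and so they are a description.

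**Figure D5:**
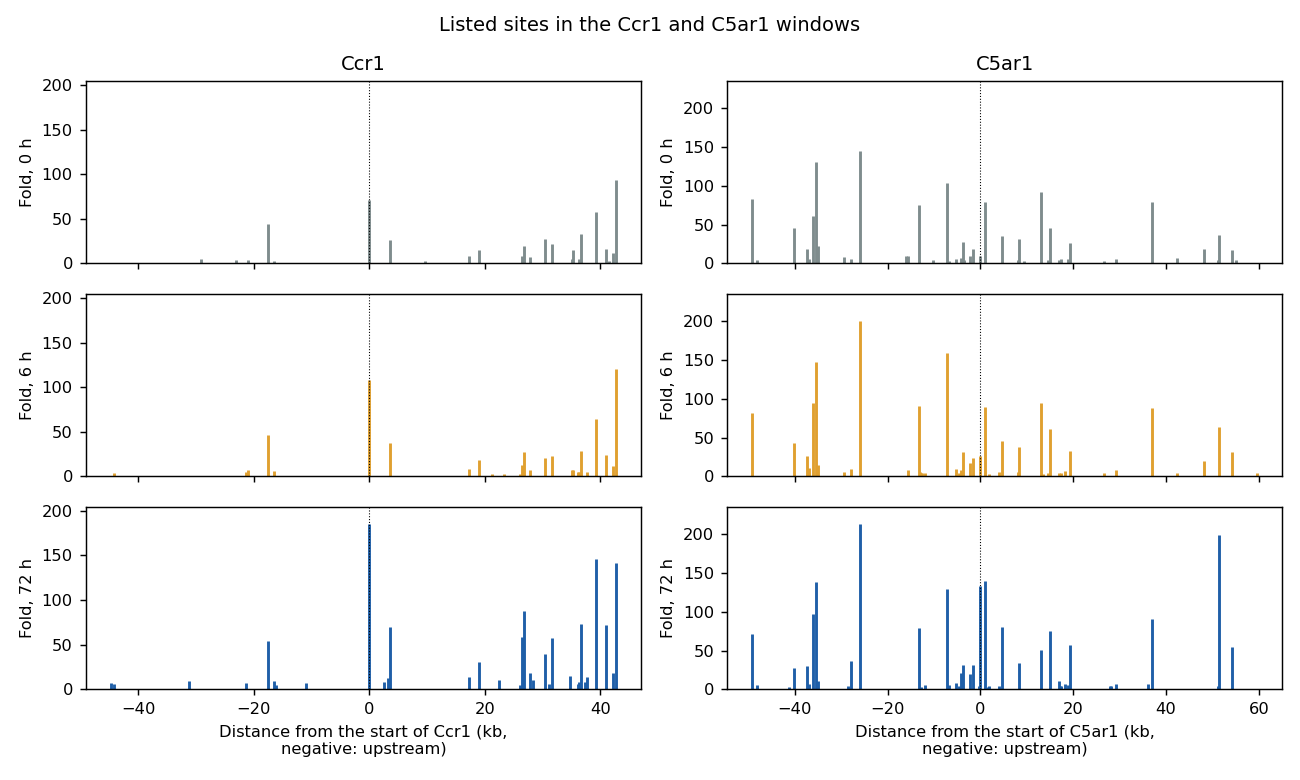
Fold of each listed site (vertical axis, linear) by distance from the RefSeq start in kb (horizontal axis, negative values upstream) in the Ccr1 and C5ar1 windows, with the 0 h, 6 h and 72 h libraries from top to bottom. The Ccr1 start reaches a fold of 186 at 72 h with a row of taller sites downstream, and the C5ar1 start reaches 133 at 72 h, against 9.83 at 0 h.

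Over all times the 9 windows held 378 sites. At all 3 times 179 (47.4%) were listed, beside 41.3% of the 237542 sites of the genome. At 72 h only, 56 (14.8%) were listed, beside 10%, and at 0 h and 6 h but not 72 h, 34 (8.99%), beside 15.1%. By position 207 of the 378 lay between genes, 30 at an end of their own receptor gene, 22 inside it, 51 at an end of another gene and 68 inside another gene. At Cxcr4, 35 of the 38 sites lay between genes and 0 in or at another gene. Cxcr2 by contrast had 11 of 29 sites inside other genes, and the region count in these was 5 at 72 h and 9 at 0 h, against 4 and 3 inside Cxcr2 itself.

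The promoter letters differed between the genes. The Cxcr4 stretch was 61.2% G or C, that of Cxcr2 54.4%, and the others ranged from 37.2% at Ccr2 to 56.8% at Ltb4r1. Short motifs were searched on both strands of each stretch of 250 bases, and the share of 32851 RefSeq promoter stretches that hold a match is given beside each. Cxcr4 held GCGCATGCGC, the site of the factor NRF1 (0.782% of promoters), at -59 to -50 from the start, TATAAA, the TATA box (12.4%), at -30 to -25 with an overlapping match on the other strand, and 3 matches to GGGCGG, a GC box (32.7%), of which 1 shares a base with the NRF1 match. All of these lay inside the listed regions at every time, within the part of the promoter in capitals above. TGTGGT, the RUNX motif (14%), was found at Cxcr1, Ccr1, Cx3cr1, C5ar1 and Ltb4r1. The C5ar1 match, at -234 to -229, lay outside the listed regions at all 3 times, and the Cxcr1 match lay inside one only at 6 h. GAGGAAG, an ETS motif bound by PU.1 (10.6%), was found at Ltb4r1, and GGGCGG also at Cxcr1, Ltb4r1 and Ptafr. The Cxcr1 match to GGGCGG lay inside a listed region at 6 h and 72 h but not at 0 h. TTGCNNAA, a C/EBP motif (9.56%), and TGANTCA, an AP-1 motif (6.75%), were in none of the 9, and Cxcr2 and Ccr2 held none of the 7 motifs searched. A match is a string of letters and not a bound site, and the absence of one says only that these letters are not in this window.

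Other genes of leukocyte chemotaxis were counted from a list of 57, all of which matched the annotation. Summed over genes, their windows contained 1508 regions at 0 h, 1488 at 6 h and 1464 after 72 h. In these sums a region in several windows counts for each, unlike in the 9 receptor windows. At 72 h, 27 genes were higher, 27 lower and 3 equal, beside 17.7% higher and 68.1% lower of all coding loci. The genes are not all separate observations: Cxcl5, Pf4 and Ppbp each had 10, 11 and 14 regions. Of 54 with at least 5 regions, 2 had at least 1.5 times as many at 72 h (Rgs1 and Rgs2, which shorten G protein signals). At most 1/1.5 times as many were found for 6 (Ackr1, Ackr4, Cmklr1, Cx3cl1, Ccl2 and Ccl7). The shares of coding loci given above were 1.67% and 24.5%. Some windows of the 57 genes overlap those of the 9 receptors (Ccr3, Ccr8, C5ar2 and Ltb4r2 among them).

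By role, 9 of 22 other receptors had more regions at 72 h than at 0 h and 12 fewer, 8 of 14 ligands more and 5 fewer, and 10 of 21 signalling genes more and 10 fewer. Of all coding loci 17.7% had more and 68.1% fewer. Ccrl2, which presents the attractant chemerin, had 27 regions at 0 h, 24 at 6 h and 38 after 72 h, and C3ar1, the C3a receptor, had 31, 30 and 40. The ligand gene Ccl4 had 31, 33 and 41, Rgs1 had 10, 12 and 19, and 3 genes (Ccl3, Pik3cg and Dock2) came next with 7 more each. Fewest against 0 h were Grk2, a kinase that turns off activated receptors, with 55, 43 and 39, and its relative Grk6 with 52, 51 and 39. The kinase gene Fgr had 44, 38 and 31, the ligand gene Cx3cl1, whose product binds Cx3cr1, had 23, 24 and 13, and Rgs19 had 29, 20 and 20.

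Nearness to the genes of this list was taken by the number of regions over the 3 libraries on a log2 scale. The genes nearest to Cxcr2 were Ccr7, Ackr2 and S1pr1, at distances of 0.230, 0.262 and 0.263. Cxcr2 entered without the shared regions given to Cxcr1, while the list genes entered with their whole windows. The whole Cxcr2 window held 32, 32 and 30 regions at 0 h, 6 h and 72 h, near the 32, 32 and 31 of Ccr6. The genes named for Cxcr2 thus depend on how its shared regions are counted. Nearest to Cxcr4 were Ccr10, Pik3r5 and Ccr6, at 0.154, 0.194 and 0.333. With 3 libraries such nearness is a description of counts.

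Cell-type markers also differed between the libraries, counted as regions in gene spans plus 10 kb. Totals are sums over genes, so a region in the windows of neighbouring genes counts for each. The 12 genes of myeloid progenitors and granulocytes contained 199 regions at 0 h, 198 at 6 h and 180 after 72 h. Kit (7, 5 and 0), Elane, Prtn3, Cebpa, Cebpe, Mpo and Csf3r had fewer at 72 h than at 0 h. Gfi1 (18, 21 and 25), Csf2rb (17, 22 and 24) and Itgam (12, 15 and 16) had more, and Spi1 and Fcgr3 had as many. All but Mpo and Csf3r had an end region at 0 h. The 9 genes of mature neutrophils held 57, 67 and 104, and a region at an end was present for 9 of 9 at 72 h, against 6 of 9 at 0 h. The 8 genes of monocytes and macrophages held 60, 59 and 81, of which Adgre1 alone held 13, 13 and 42, while Klf4 was at 0 throughout and Marco at 0 at 72 h. B-lymphoid genes held 47, 43 and 22, T-lymphoid genes 39, 41 and 42, erythroid genes 31, 29 and 22 and non-blood genes 22, 15 and 8. The part of a shift in cell state or cell mix in the values at Cxcr2, C5ar1, Ccr1, Ptafr and Cxcr4 was not tested.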

How the data were processed

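ATAC-seq peak lists of 3 libraries, 1 per time, were used. Per the submitters' processing notes, the tools were MACS2 2.2.7, BWA 0.7.17, bedtools 2.30.0, HOMER, limma, edgeR, ChIPseeker, MultiQC 1.10.1 and FastQC 0.11.8, and the build was mm10. Which read filters and options were used is not given in the sources used here. In each deposited list, called per library by the authors, a line gives a position, a score, a ratio (fold of the summit over background), a −log10 p-value, a −log10 q-value and the summit offset.

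Regions were read in Python 3.11.15 with pandas 2.3.3, numpy 2.4.6 and scipy 1.17.1, and matched on 1 bp of overlap. The strong cutoffs (−log10 q) were 7.82 at 0 h, 9.25 at 6 h and 13.0 at 72 h. All folds under 100 were whole multiples of 1 step per library (tolerance 0.05 of a step), from which summit fragments were taken as fold over step minus 1. The lowest summit was 3 fragments in each list. Read totals were not used. Intervals are exact 95% (Poisson for summits, Clopper-Pearson for shares, binomial split for ratios). Gene spans, starts and promoters are from RefSeq GRCm38.p6. For each gene 1 start was used, and for Cxcr1, Ccr2 and C5ar1 it lay inside the gene span. The matching was tested on simulated regions.

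The groups follow the treatment labels. The 9 genes and the lists were chosen with earlier results of these data known. All 9 genes are named. Regions named by rule are the highest of a gene, those at its ends and strong losses and gains; other sites were named after their values were seen. From the list of 57, the 5 highest and 5 lowest differences are named. Alternatives were other flanks, thresholds, list sizes, merging, overlap and ranking.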

Additional observations from a re-analysis of the deposited data

How the results depend on the processing

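Other ways of counting were tried for the region ratios, the losses and gains and, after the values were seen, the start-site ranks. The ratio of regions in the 9 windows, 72 h over 0 h, is 0.997. It was 1.34 among regions with a fold of at least 10 and 1.27 with lists of equal size, and under the other 5 settings it moved by less than its counting interval. The 6 h ratio did so under all 7 settings. No ratio over all coding loci is given here for the fold threshold. For the Cxcr4 window the ratio was 1.75 among regions with a fold of at least 10, against 0.862 as reported, and that of Cxcr2 stayed inside its interval under all 7, although its side of 1 turned with the 10 kb flank. Strong regions lost at 72 h numbered 20. They were 4 with a 10 kb flank, 13 where strong meant a −log10 q of at least 10 and 5 where it meant a fold of at least 10. Strong regions gained numbered 15, and 4 with a 10 kb flank, 20 by the −log10 q threshold and 13 by the fold threshold. By both thresholds gains outnumbered losses, but the shares over all regions at these thresholds are not given here. Ranked among start sites only, the difference was 21.0 points for Cxcr2 and -26.5 points for Cxcr4, in place of 33.3 and -17.1, and ranking by −log10 q gave 33.3 and -17.1 again. By the single region nearest the start it was 33.3 and -38.3 points. No paired analysis was possible because each time has 1 library. The limits are 1 library per time, lists that hold only summits of 3 fragments or more, and intervals that cover counting error alone; a region missing from a list is not shown to be closed. The causes of the shifts under these settings were not tested, other than that a narrower flank or a stricter threshold holds fewer regions.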

Other observations

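Ends of other genes inside the receptor windows gave values of their own. Ccr8 lies in the Cx3cr1 window, and the site at its end (120093775 to 120093968) had a fold of 6.05 at 0 h, 7.54 at 6 h and 16.4 at 72 h. C5ar2, a second C5a receptor, lies in the C5ar1 window, and its end (16244114 to 16244422) had 45.4, 61.0 and 74.9. Both were highest at 72 h and lowest at 0 h.

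Other neighbours differed among themselves. The end of Ripk3, a kinase of necroptosis in the Ltb4r1 window (55788175 to 55789031), had 50.6 at 0 h, 43.7 at 6 h and 23.4 at 72 h. A site inside Ltb4r2, the second leukotriene B4 receptor (55760206 to 55760499), had 56.7, 53.5 and 44.5. Inside Dhx34, an RNA helicase gene 51.5 kb downstream of the C5ar1 start (16207157 to 16207856), a site had 37.0 at 0 h, 63.3 at 6 h and 199 after 72 h, the second highest fold at 72 h in the C5ar1 window.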
